A study of Mus musculus with 6 samples.

Results

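The Iroquois homeobox genes Irx1 to Irx6 make up the whole of this family in the mouse, and they were taken by name, as every probe set of the array that maps to 1 of these genes and to no other. The array holds 1 such probe set per gene, 6 in all, out of 18193 genes with a probe set of their own. All 6 had a mean log2 signal over 7 in at least 1 genotype, the study's limit for expression, which 20888 probe sets passed. Retinas from 3 WT and 3 OC1-KO embryos were hybridised to Affymetrix mouse genome arrays, with 1 embryo to each array and the embryos of each genotype numbered 1 to 3. OC1-KO embryos lack Onecut1 (OC1), a cut-homeodomain transcription factor known for its part in horizontal cell development, and WT embryos were their littermates. The labels give the stage as E14 and the series' design text as E14.5. The line came from R1 embryonic stem cells placed in a Swiss strain and was later bred to C57Bl/6, so that both genotypes had a mixed background. The allele is absent from the whole body rather than from the retina alone, and the sex of the embryos is not given.

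Iroquois proteins are transcription factors of the TALE class of homeodomain proteins, named for a loop of extra residues between the helices of the homeodomain. They pattern many tissues along their axes, and in neural tissue they act both in regional identity and in the differentiation of particular neurons. In the mouse retina the family is known from the ganglion cell layer and from bipolar interneurons: Irx4 has been tied to the paths of ganglion cell axons, and Irx5 and Irx6 to subtypes of cone bipolar cells. In mammals the genes sit in a pair of clusters that arose by duplication, and neighbours in a cluster can share enhancers.

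On the mouse assembly GRCm38.p6 the genes lie on 2 chromosomes. Chromosome 13 carries Irx1 (71958232 to 71963723), Irx2 (72624430 to 72634196) and Irx4 (73259589 to 73269622), spread over 1310 kb. Chromosome 8 carries Irx3 (91798511 to 91801654), Irx5 (92357796 to 92361456) and Irx6 (92674289 to 92680956), spread over 882 kb. Gaps between neighbours were 661 kb from Irx1 to Irx2, 625 kb from Irx2 to Irx4, 556 kb from Irx3 to Irx5 and 313 kb from Irx5 to Irx6. The annotated span of Irx2 overlaps that of the long noncoding RNA gene Gm20554. Onecut1 itself is on chromosome 9, so no Irx gene is linked to the targeted allele.

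**Figure D1:**
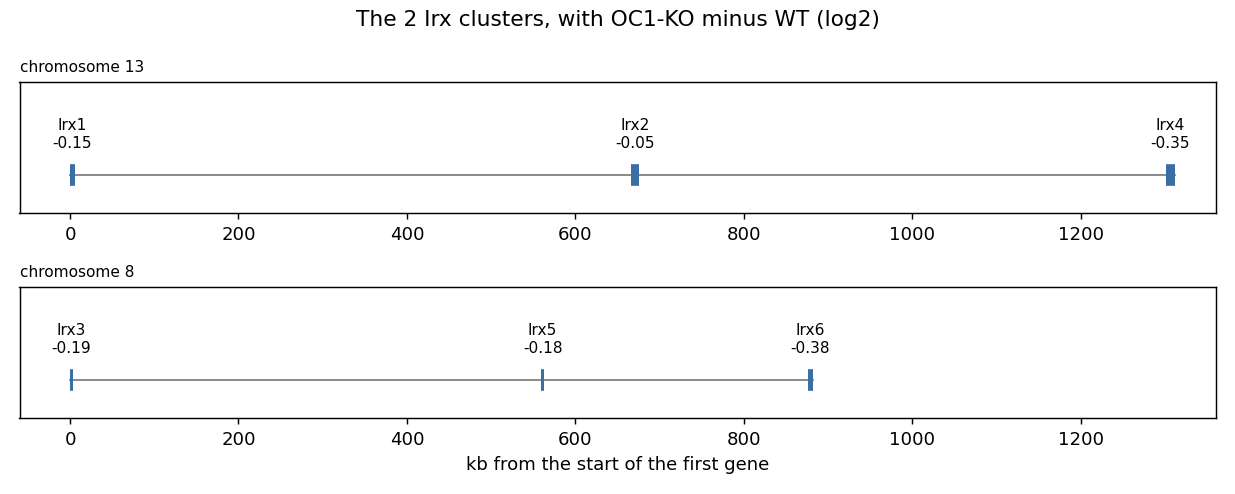
Map of the 2 Irx clusters, drawn to scale in kb from the start of the first gene of each. Blocks are annotated gene spans, and the number under each name is the log2 difference OC1-KO minus WT, which runs from -0.05 for Irx2 to -0.38 for Irx6.

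RefSeq start-site windows were at hand for 3 of the 6 genes, Irx2, Irx3 and Irx4, and are shown because they hold the sequence just upstream of a start of these transcripts. The starts of Irx2 and Irx4 used there lie inside the annotated gene span, so each window also falls within the span of its gene. Each is the 250 bases before the annotated start on the strand of the gene, at chr13:72628570-72628819 on the plus strand for Irx2, chr8:91801655-91801904 on the minus strand for Irx3 and chr13:73260247-73260496 on the plus strand for Irx4 (GRCm38.p6). Capitals mark matches, on either strand, to the homeodomain core TAAT, the E-box CANNTG and the GC box GGGCGG, which can overlap.
Irx2: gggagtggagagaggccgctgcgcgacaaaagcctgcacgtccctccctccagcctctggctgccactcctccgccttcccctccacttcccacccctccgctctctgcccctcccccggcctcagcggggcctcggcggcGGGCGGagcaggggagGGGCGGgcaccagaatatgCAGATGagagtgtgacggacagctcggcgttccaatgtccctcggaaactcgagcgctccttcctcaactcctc
Irx3: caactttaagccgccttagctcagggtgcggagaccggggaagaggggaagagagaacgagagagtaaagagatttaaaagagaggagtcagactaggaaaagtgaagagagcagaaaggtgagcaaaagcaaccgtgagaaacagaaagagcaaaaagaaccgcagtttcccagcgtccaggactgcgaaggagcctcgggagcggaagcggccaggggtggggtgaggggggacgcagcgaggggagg
Irx4: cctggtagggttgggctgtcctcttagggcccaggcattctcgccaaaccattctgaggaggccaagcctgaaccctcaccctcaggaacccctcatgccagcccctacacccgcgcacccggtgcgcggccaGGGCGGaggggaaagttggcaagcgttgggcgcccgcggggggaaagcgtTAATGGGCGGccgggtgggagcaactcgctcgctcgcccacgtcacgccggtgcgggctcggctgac

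The windows differed in composition. GC content was 68.4% for Irx2, 68.8% for Irx4 and 56.0% for Irx3, against a median of 52.4% over the 32851 windows of the table, and they held 19, 22 and 13 CpG dinucleotides, against a median of 6. The Irx4 window has a homeodomain core that starts 67 bases before the start site and runs into a GC box at 63, with another GC box at 117. Irx2 has an E-box, CAGATG, at 74 bases and GC boxes at 93 and 109. None of the 3 windows holds the Onecut core, searched as ATTGAT and ATCGAT on both strands, and 7.4% of all windows do. The other motifs are common, with the homeodomain core in 54.9% of windows, the E-box in 66.2% and the GC box in 32.7%. Matches are letters in a window and were not tested for binding.

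Genes that define retinal progenitors were measured on every array. Of 7 such genes, the 6 with a probe set of their own (Pax6, Rax, Six3, Six6, Lhx2 and Sox2) all passed the signal limit, and their summed log2 signal ran from 15.18 to 15.37 in WT and from 15.13 to 15.53 in OC1-KO. The embryos numbered 3 stood apart. Of 13 lens genes, 11 were higher on both of their arrays than on the other 4. Only 4 of the 13 passed the signal limit. The summed log2 signal of the 13 was 15.07 (WT 3) and 13.97 (OC1-KO 3) against 8.11 to 9.11. Both embryos numbered 3 were also on top for 8 of 10 periocular mesenchyme genes, 5 of 7 red blood cell genes and 5 of 8 pigment epithelium genes. Of these lists 1, 1 and 4 genes passed the limit. The order was also found for 3 of the 6 retinal progenitor genes. It was found for 5 of 14 ganglion cell transcription factor genes, of which 12 passed the limit, and for 14.9% of all probe sets kept. The counts of the lists include genes below the limit, and the 14.9% does not. Cryaa, the lens crystallin, had a log2 signal of 11.59 in WT 3 and 10.49 in OC1-KO 3 and of 2.26 to 4.09 on the other arrays. Onecut1 itself had log2 signals of 8.43 to 9.30 in WT and 7.51 to 9.67 in OC1-KO over its probe sets, which check nothing about the labels because no source used here places them relative to the deletion. Genotypes follow the sample labels. In the article's supplementary list that holds Irx4, the column headings assign the same values to the opposite genotypes, whereas its text and the list of higher genes run the same way as the labels.

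Irx4 had the lower signal in every OC1-KO retina. The WT arrays gave log2 signals of 9.00, 8.82 and 8.84 for embryos 1, 2 and 3, and the OC1-KO arrays 8.66, 8.43 and 8.53, so the highest OC1-KO value lay below the lowest WT value. On the linear scale these are signals of 451 to 512 in WT and 345 to 404 in OC1-KO. The limma difference was -0.35 with an SE of 0.15 and a 95% interval of -0.69 to -0.003, a ratio of 0.786. The differences within pairs of embryos with the same number, -0.34, -0.39 and -0.31, had an SD of 0.04, the smallest of the 6 Irx genes, whose pair SDs reach 0.93. In bulk tissue, fewer cells of a type that makes Irx4 and less Irx4 RNA in each cell cannot be told apart.

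The Irx4 difference did not pass the test over all genes. By limma the unadjusted p was 0.0485 and the adjusted p 1.00, with 0 of 20888 probe sets (0%) at an adjusted p under 0.05 and 0 of the 6 Irx genes. At an unadjusted limma p under 0.05, Irx4 was the 1 of 6 Irx genes called and it was lower, against 0.637% of all probe sets kept that were lower and 1.01% in either direction at that threshold. With the embryo number as a block 1 of 6 was again lower, now against 2.81%, and by the methods' t-test 1 of 6 against 0.747%; in each case the gene was Irx4, and no probe set passed after adjustment. The two-sided exact permutation test of the 3 against 3 values gave p = 0.1, the smallest that this design allows. Groups that do not overlap, with OC1-KO lower, were found for 1 of 6 Irx genes and for 1.86% of all probe sets kept. The study chose Irx4 from these same arrays, so its direction here is not independent evidence. The unadjusted limma p was 0.0206 with the embryo number as a block, and it was above 0.05 without any 1 of the 6 arrays (0.0562 without OC1-KO 1 to 0.14 without OC1-KO 2), with a difference of -0.41 to -0.29.

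**Figure D2:**
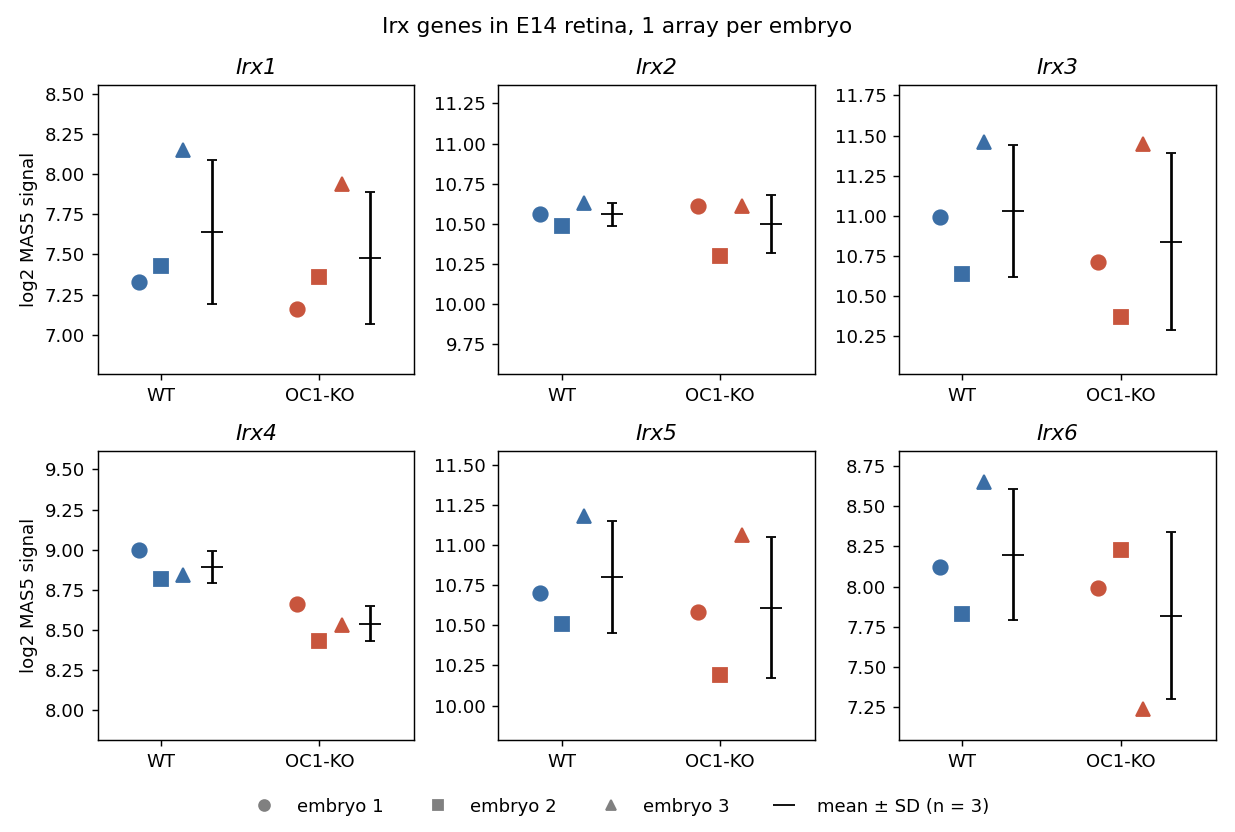
Log2 MAS5 signal of the 6 Irx genes in WT and OC1-KO retinas, 1 point per array, with the marker giving the embryo number and the bar the mean ± SD (n = 3). Each panel spans the same range of log2 units, and the genotypes separate for Irx4, at 8.82 to 9.00 in WT and 8.43 to 8.66 in OC1-KO, while those of the other 5 genes overlap.

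Irx3 and Irx5, neighbours on chromosome 8, measured slightly less in OC1-KO on average, within a wide spread. Irx3, which acts in neural patterning and in the heart's conduction system, had log2 signals of 10.99, 10.64 and 11.46 in WT 1 to 3 and 10.71, 10.37 and 11.45 in OC1-KO 1 to 3. Irx5, which is required for the differentiation of some cone bipolar cells, had 10.70, 10.51 and 11.18 in WT and 10.58, 10.19 and 11.06 in OC1-KO. For each gene the groups overlap almost fully, because both embryos numbered 3 were high and both numbered 2 were low. The limma difference was -0.19 for Irx3 (SE 0.33, 95% interval -0.97 to 0.59) and -0.18 for Irx5 (SE 0.28, 95% interval -0.84 to 0.47), with an unadjusted limma p of 0.586 and 0.525 and an adjusted p of 1.00 for each.

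By embryo number the OC1-KO value of Irx5 was lower in 3 of 3 pairs, by differences of -0.12, -0.32 and -0.12. For Irx3 the pairs differed by -0.29, -0.27 and -0.004, so the pair numbered 3 was nearly equal. With the embryo number as a block the SE narrowed to 0.12 for Irx3 and 0.11 for Irx5, and the unadjusted limma p was 0.175 and 0.16. Without OC1-KO 2 the difference turned to 0.05 for Irx3 and 0.02 for Irx5, and without WT 3 to 0.03 and 0.01.

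Irx1, known for its part in patterning of the nervous system, lung and limb, lay close to the signal limit. Its log2 signal was 7.33, 7.43 and 8.15 in WT 1 to 3 and 7.16, 7.36 and 7.94 in OC1-KO 1 to 3, again with both embryos numbered 3 on top. The pairs differed by -0.17, -0.07 and -0.21, all lower in OC1-KO, and the limma difference was -0.15 (SE 0.29, 95% interval -0.85 to 0.54; unadjusted p = 0.621, adjusted p = 1.00). The limma difference was 0.10 without WT 3 and 0.01 without OC1-KO 1.

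Irx2, a neighbour of Irx1 and Irx4 that often shares the pattern of Irx1, was the steadiest gene of the family. Its log2 signal was 10.56, 10.49 and 10.63 in WT and 10.61, 10.30 and 10.61 in OC1-KO embryos 1 to 3, a range of 0.33 over the 6 arrays, against a median range of 0.64 over all probe sets kept. Only OC1-KO 2 lay outside 10.49 to 10.63. The limma difference of -0.05 (SE 0.15) had a 95% interval of -0.42 to 0.31, an unadjusted p of 0.746 and an adjusted p of 1.00.

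Irx6, a factor of OFF cone bipolar subtypes, varied the most, over a range of 1.41. Its log2 signal was 8.12, 7.83 and 8.65 in WT 1 to 3 and 7.99, 8.23 and 7.24 in OC1-KO 1 to 3, so the highest and the lowest arrays were the WT and the OC1-KO embryo numbered 3. The pairs differed by -0.13, 0.40 and -1.41, in both directions. The limma difference was -0.38 (SE 0.32, 95% interval -1.13 to 0.38; unadjusted p = 0.274, adjusted p = 1.00). It is near that of Irx4 in size, but it was -0.09 without OC1-KO 3 and 0.14 in the embryos numbered 1 and 2 alone, where Irx4 differed by -0.37.

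**Figure D3:**
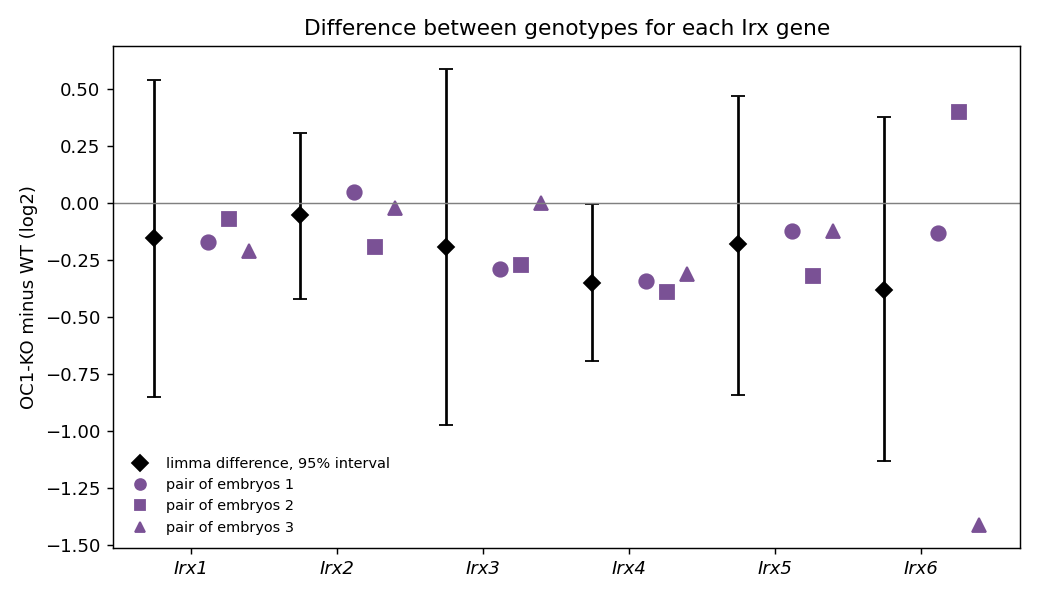
OC1-KO minus WT log2 difference for each Irx gene. Diamonds with bars are the limma difference and its 95% interval, and the other markers are the differences within the 3 pairs of embryos with the same number. The 3 Irx4 pairs lie together at -0.39 to -0.31, whereas those of Irx6 run from -1.41 to 0.40.

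Across the family the mean was lower in OC1-KO for 6 of 6 genes, and 52.3% of all probe sets kept had a mean difference below 0. The median difference was -0.19 over the 6 genes and -0.01 over the probe sets kept. Both family values rest on single arrays. The mean was lower for 3 of 6 genes without WT 3 or without OC1-KO 2, where 55.3% and 53.8% of all probe sets kept had a mean difference below 0, and the family median was then -0.01 and -0.03. With 6 of 6 genes lower, it was -0.35 when WT 2 was left out and -0.36 when OC1-KO 3 was. In those settings 51.3% and 45.7% of all probe sets kept had a mean difference below 0. Lower signal in 3 of 3 pairs was found for Irx1, Irx3, Irx4 and Irx5, 4 of 6 genes, against 13.1% of all probe sets kept, where Irx3 counts through its pair of -0.004. The 6 genes share 6 arrays and are not independent of each other. Among the probe sets kept, 3.41% had a difference below that of Irx6, 4.22% below that of Irx4, 13.6% below that of Irx3, 13.9% below that of Irx5, 17.9% below that of Irx1 and 37.8% below that of Irx2. Of 8 pigment epithelium genes, 4 passed the signal limit, each only through its OC1-KO mean. Their WT means were 6.05 to 6.97 and their OC1-KO means 7.29 to 8.36. The filter thus fixed their direction, higher in OC1-KO (median log2 difference 0.98). The summed log2 signal of the list, which includes these 4, was 8.34 to 9.85 in WT and 9.40 to 11.10 in OC1-KO. The summed signal was higher in OC1-KO in 3 of 3 pairs, at 8.91 and 9.40, 8.34 and 9.61, and 9.85 and 11.10. A sum weighs bright genes most, and these 4 have the highest OC1-KO means of the list. The genes did not all move together. In the pair numbered 1, Tyr, Tyrp1, Dct and Mlana were lower in OC1-KO, and Mitf, Pmel, Rpe65 and Ttr were higher. None of the 4 had an unadjusted limma p under 0.05 without the block. With the embryo number as a block the unadjusted limma p was 0.00258 for Pmel, 0.00972 for Mitf, 0.0913 for Dct and 0.0903 for Ttr. No probe set passed after adjustment. All 4 genes were kept through their OC1-KO mean, so these p-values are no independent evidence of a difference. The part of the pigment epithelium genes in the Irx differences was not tested.

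**Figure D4:**
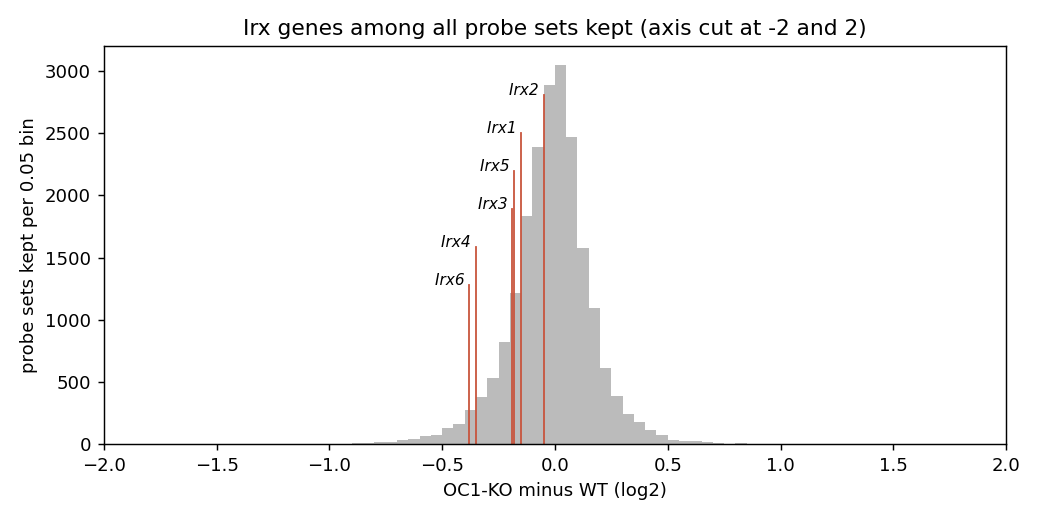
Log2 differences OC1-KO minus WT of the 20888 probe sets kept, as counts per bin, with the 6 Irx genes marked by lines whose height has no meaning. The axis is cut at -2 and 2. All 6 lie left of 0, from -0.38 (Irx6) to -0.05 (Irx2), and inside the bulk of the distribution or on its left shoulder.

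The means of Irx1, Irx3 and Irx5 lay farther apart between embryo numbers than between genotypes. This was so for Irx2 as well, with a range of 0.23 between embryo numbers and a genotype difference of -0.05. A range over 3 means of 2 arrays tends to be wider than a difference between 2 means of 3 arrays. The mean of the WT and OC1-KO arrays of embryos 1, 2 and 3 was 10.85, 10.51 and 11.46 for Irx3, 10.64, 10.35 and 11.12 for Irx5 and 7.24, 7.39 and 8.04 for Irx1. Embryos numbered 3 exceeded the mean of the others by 0.78 for Irx3 (1.72-fold), 0.72 for Irx1 (1.65-fold) and 0.63 for Irx5 (1.54-fold). Both lay above all of the other 4 arrays for these genes, by margins of 0.462, 0.508 and 0.365, and for Irx2 by a margin of 0.00103, so 4 of 6 Irx genes showed this order, against 14.9% of all probe sets kept. The opposite order, with both below the other 4, was found for 0 of 6 and for 23.5% of all probe sets kept. Irx4 (8.83, 8.62 and 8.68) and Irx6 (8.06, 8.03 and 7.94) had similar means at each embryo number, although for Irx6 the WT and OC1-KO arrays of embryo 3 lay on opposite sides.

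Tested with limma's F test for embryo number, with genotype in the fit, no Irx gene passed an adjusted p of 0.05, while 5.32% of all probe sets kept did. That number, 1111, was between 0 and 9 without any 1 array other than WT 1. Irx3, Irx1 and Irx5 were close to it, with an adjusted p of 0.0516, 0.0530 and 0.0650, and Irx2, Irx4 and Irx6 had 0.439, 0.480 and 0.972. At an unadjusted p under 0.05 the F test had 3 of 6 Irx genes, and 31.9% of all probe sets kept. The call depends on the fit: Irx genes at an adjusted p under 0.05 numbered 2 of 6 after quantile normalization, where 5.34% of all probe sets kept passed, 2 of 6 after median centring (7.90%) and 3 of 6 after log2 of the signal plus 32 (9.12%). The summed signal of the lens, red blood cell and periocular mesenchyme genes was highest in the same embryos. So was that of the retinal progenitor genes, by less, at 15.37 and 15.53 against 15.13 to 15.27. The part of these genes in the Irx signal was not tested.

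**Figure D5:**
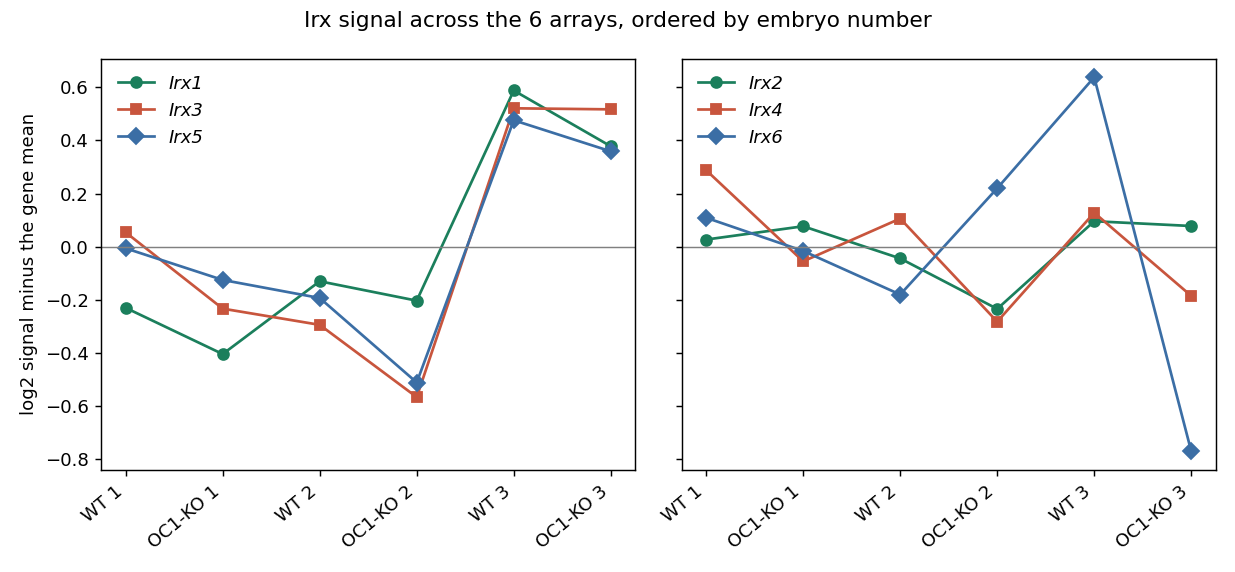
Log2 signal of each Irx gene minus its mean over the 6 arrays, ordered by embryo number, with WT before OC1-KO. Irx1, Irx3 and Irx5 (left) peak in both embryos numbered 3, at 0.359 to 0.588, while Irx2, Irx4 and Irx6 (right) do not share a profile.

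Irx3 and Irx5 had the most similar profiles in the family. After each gene was centred on its own mean, their root mean square difference over the 6 arrays was 0.10 in log2 units, the smallest of the 15 pairs of Irx genes. Of 10528 other genes with a probe set kept, each described by its brightest, 3 were at least as close to Irx3 as Irx5 was, Irx5 included, and 4 as close to Irx5 as Irx3 was, Irx3 included. Irx1, on the other chromosome, differed from Irx5 by 0.20 and from Irx3 by 0.22, and 383 genes were at least as close to Irx1 as Irx5 was. Irx6 differed from its cluster neighbours Irx5 and Irx3 by 0.56 and 0.63, among the largest values. Irx2 and Irx4 differed by 0.17, but 2967 genes were as close to Irx2, whose profile is nearly flat. All these profiles share the same 6 arrays and the difference between embryo numbers, so the likeness is a description.

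The genes outside the family with the most similar profiles were Mmab (a mitochondrial enzyme of cobalamin metabolism), Fam189b and Jakmip1 for Irx4, at 0.065, 0.067 and 0.07. Mmab had 7.77, 7.39 and 7.51 in WT 1 to 3 and 7.34, 7.05 and 7.13 in OC1-KO 1 to 3. This is the order of Irx4 within each genotype, but Mmab was chosen as nearest over these same values. Dis3l2, an exonuclease gene, and Spns1 were nearest to Irx3 at 0.072 and 0.077, and Dis3l2, Fgd1 and Mideas to Irx5 at 0.083, 0.088 and 0.089. Tomm40, Scly and 2900093K20Rik were nearest to Irx1 (0.056 to 0.074), Erc2, Sap30bp and C1qtnf4 to Irx2 (0.014 to 0.033) and Zfat, Dbh and Ptpre to Irx6 (0.104 to 0.124).

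Genes beside the clusters were compared because regulatory sequence can be shared with them. Fto, 130 kb from Irx3, whose introns are known to hold Irx3 enhancers, had log2 signals of 10.80 ± 0.03 (WT) and 10.78 ± 0.14 (OC1-KO; SD, n = 3), or a limma difference of -0.02 (SE 0.14). Mmp2, the gelatinase gene 146 kb beyond Irx6, had 8.80 ± 0.22 and 9.00 ± 0.28, or 0.20 (SE 0.20). The Mmp2 difference was 0.08 without OC1-KO 2, 0.35 without OC1-KO 3 and 0.47 in embryos 1 and 2 alone, with an unadjusted limma p of 0.0438 and an adjusted p of 1 in the last. By embryo number Fto stood at 10.71, 10.79 and 10.88 and Mmp2 at 8.92, 8.92 and 8.86 at embryo numbers 1, 2 and 3. On chromosome 13, Adamts16 was below the signal limit and Ndufs6 has no probe set of its own. After the values were seen, Mrpl36, 58.9 kb from Irx4, and the noncoding gene Crnde, 1.68 kb from Irx5, were added. Mrpl36 differed by -0.08 (SE 0.28) and Crnde by -0.17 (SE 0.22). In Crnde the 2 embryos numbered 3 stood at 7.19 in WT and 7.58 in OC1-KO, and the other 4 at 6.88 to 7.54.

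Other homeobox genes of the TALE class, which include partners of Hox proteins, did not differ at an adjusted p under 0.05. Of 12, 9 were measured, of which 3 had a higher and 6 a lower mean in OC1-KO, with a median difference of -0.02. Among all probe sets kept, 52.3% had a mean difference below 0. Lower signal in 3 of 3 pairs was found for 3 of the 9, against 13.1% of all probe sets kept. The cofactor gene Pbx3 measured 11.91 ± 0.17 in WT and 11.81 ± 0.17 in OC1-KO, and Pbx2 11.65 ± 0.36 and 11.59 ± 0.27 on the log2 scale (SD, n = 3). Of the genes tied to Iroquois factors by earlier work, 2 of 9 passed the signal limit. The axon guidance cue Slit1, which Irx4 has been linked to in the chick retina, had log2 signals of 8.36, 7.36 and 7.94 in WT 1 to 3 and 7.99, 8.47 and 7.38 in OC1-KO 1 to 3, overlapping fully, with a limma difference of 0.06 (SE 0.35). The gap junction gene Gja1 differed by 0.68 (SE 0.71), with 12.14 in OC1-KO 3 and 9.17 to 10.59 on the other arrays, and by -0.14 without OC1-KO 3. The bipolar genes of this set, Vsx1, Rcvrn and Cabp5, were below the limit, as were 6 of 8 genes of the bipolar list with a probe set of their own.

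Among Slit and Robo genes, 4 of 7 were measured, with 1 mean higher and 3 lower in OC1-KO and a median difference of -0.15. Of all probe sets kept, 52.3% had a mean difference below 0. The receptor gene Robo1 differed by -0.39 (SE 0.35), or by -0.71 when WT 1 was left out and -0.12 when OC1-KO 1 was, and the ligand gene Slit2 by -0.09 (SE 0.25). Of 15 ganglion cell transcription factor genes, 12 were measured, 5 with a higher and 7 with a lower mean, and a median of -0.02. Lower signal in 3 of 3 pairs was found for 2 of the 12, against 13.1% of all probe sets kept. Atoh7, which makes progenitors competent to become ganglion cells, measured 14.54 ± 0.33 in WT and 14.60 ± 0.18 in OC1-KO, and Sox4, on its brightest probe set, 14.37 ± 0.05 and 14.39 ± 0.01 on the log2 scale (SD, n = 3). The study reports Sox4 as significantly upregulated in these OC1-KO retinas, and Sox4 probe sets other than the brightest are not described here. On its brightest probe set, no gene of these lists had an unadjusted limma p under 0.05. With the embryo number as a block Robo1 had an unadjusted limma p of 0.0408 (adjusted p over 0.05).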

How the data were processed

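The deposited values are MAS5 intensity, linear and not logged. The authors made them from scanner files with the affy package in R, which subtracts background, combines the probes of a set and normalizes each array, and no source names its version. Log2 was taken and nothing was rescaled. The array has 45101 probe sets. Without its 64 controls, the 20888 with a mean log2 signal over 7 in either genotype were kept, as in the study's methods; on each array 43.4% to 46.7% of all sets exceeded 7. Precision rests on signal over background and on 3 arrays per genotype. Of the probe sets kept, 18250 have 1 gene symbol, 505 have several and 2133 have none, by the platform annotation updated through Entrez IDs.

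Genotypes were compared in limma 3.58.1 (R 4.3.3), with p-values adjusted by Benjamini-Hochberg over all 20888 probe sets, and embryo number by limma's F test with genotype in the fit. The methods' t-test at p under 0.05 was an alternative, with the replicate block and those of the closing section. Deviations from the genotype mean correlate at 0.51 to 0.67 for arrays of the same embryo number and at -0.66 to -0.04 otherwise. Deviations within a genotype sum to 0, so the negative values are in part fixed by the calculation. The first principal component of the arrays mainly sets the embryos numbered 3 (40.8 and 54.6) apart from the others (-30.6 to -19). The labels do not state the pairs. The fits were tested on simulated data with independent noise. For the genotype tests these data had no effect shared by embryo number, so that structure was not covered. Figures and promoter windows used Python 3.11.15, pandas 2.3.3 and matplotlib 3.10.9.

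Members and lists were chosen with earlier results of these data known. Named are the Irx genes, the 3 genes nearest in profile to each, the nearest protein-coding gene on either side of each cluster, and, from the lists of TALE, Iroquois-linked, Slit and Robo, and ganglion cell genes, the 2 brightest, since no gene had a limma p under 0.05. Other lists are given by counts. A gene is described by its brightest probe set that maps to it alone.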

Additional observations from a re-analysis of the deposited data

How the results depend on the processing

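The count of probe sets at an adjusted p under 0.05 between genotypes was 0 by limma and in each of the 15 alternatives, at an unadjusted limma p under 0.05 it was 210, and Irx4 was lower in all 15 (-0.41 to -0.29, adjusted p 0.999 to 1). The count of Irx genes at an unadjusted p under 0.05, 1 in the fit reported, was 0 with no filter on signal, after quantile normalization, with arrays centred on the median, with log2 of the signal plus 32, with an intensity trend, in embryos 1 and 2 alone, and 0 to 0 without any 1 array; it stayed at 1 with the filter at 8, the replicate block and the methods' t-test. With the replicate block the Irx4 difference stayed at -0.35 and the count at an adjusted p under 0.05 at 0, while probe sets lower at an unadjusted p under 0.05 went from 133 to 586; it changed no call after adjustment. For embryo number, 1111 probe sets had an adjusted p under 0.05: the count was 0 with no filter, 2308 with the filter at 8 (14.4% of those tested), 1116 after quantile normalization (5.34%), 1650 with arrays centred on the median (7.90%), 1905 with log2 of the signal plus 32 (9.12%), 4106 with an intensity trend (19.7%), and 0 to 1544 without 1 array, with 0 to 9 for each array left out but WT 1. Irx genes among them, 0 of 6 in the fit reported, were 2 of 5 tested with the filter at 8, and of 6 tested 2 after quantile normalization, with arrays centred on the median and with an intensity trend, and 3 with log2 of the signal plus 32. The direction turned for Irx6 in embryos 1 and 2 alone (0.14) and, after quantile normalization, for Atoh7 (-0.03) and Sox4 (-0.08). With 1 array left out, the difference ran from -0.38 to 0.10 for Irx1, -0.10 to 0.05 for Irx2, -0.49 to 0.05 for Irx3, -0.41 to 0.02 for Irx5, -0.24 to 0.12 for Pbx2, -0.14 to 1.12 for Gja1, -0.21 to 0.34 for Slit1, -0.27 to 0.17 for Slit2, -0.12 to 0.20 for Atoh7, -0.10 to 0.04 for Fto, -0.71 to -0.12 for Robo1, 0.08 to 0.35 for Mmp2 and -0.20 to -0.01 for Pbx3. Irx1 and Slit1 fell below the filter at 8 and have no value there. The cause was not tested.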
